A study of Drosophila melanogaster with 18 samples.

Results

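Chromatin immunoprecipitation sequencing (ChIP-seq) of Polybromo was compared between Drosophila melanogaster ovarian somatic cells (OSCs) depleted of Piwi and control OSCs. OSCs are a cultured line from the somatic cells of the fly ovary. The comparison used 4 of the 18 samples of the series. They were the Polybromo ChIP and its input after knockdown of EGFP, the control, and the Polybromo ChIP and its input after knockdown of piwi, all taken 2 days into the knockdown. The ChIP libraries were made with an antibody against Polybromo after formaldehyde cross-linking, and the input libraries with none. The Brm ChIP of each condition used the same input. RNA of OSCs after the EGFP and piwi knockdowns and an Osa ChIP with its own inputs were read beside them. Each condition held 1 library, so differences could not be set against replicate error and were not tested. The error given is the 95% counting interval, which covers the sampling of reads only.

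Piwi is the nuclear Argonaute protein that, guided by piRNAs, silences transposons at the level of transcription. In ovarian somatic cells its main targets are LTR retrotransposons of the Gypsy superfamily. Polybromo carries several bromodomains, which bind acetylated histones, and it is a signature subunit of PBAP, the form of the SWI/SNF chromatin remodelling complex that lacks Osa. Brahma (Brm) is the ATPase shared by PBAP and by BAP, the form that contains Osa.

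The change at a transposon family or gene is the log2 ratio of ChIP over input in the Piwi knockdown to ChIP over input in the control. It is given relative to the median of the 8479 features, among 16958, whose mean input was at or above the median. A feature past 2-fold on that scale is called higher or lower. By this call 739 features were higher, which is 8.72% of those kept, and 782 were lower, which is 9.22%. Most of these calls rested on few reads. The kept genes had a median of 58 reads over the 4 libraries, and their counting intervals reached a median of 1.54 log2 units to either side. The kept transposon families had a median of 1673 reads. Among the 739 features with at least 200 reads, 22 were higher (2.98%) and 1 was lower (0.135%). In the same 739 features the counting interval lay above 0 in 62 (8.39%) and below 0 in 52 (7.04%). The account below therefore turns on features with at least 200 reads.

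The libraries held 1336118 reads (control input), 992734 (control Polybromo ChIP), 1136920 (knockdown input) and 1146848 (knockdown Polybromo ChIP), of which the listed features took 31.9% to 36.3%. The piwi transcript stood at 81.5 RPKM (reads scaled to feature length and library size) in the control RNA library and at 10.95 RPKM in the Piwi knockdown. The polybromo transcript stood at 10.6 RPKM and 8.52 RPKM. At 5 RPKM or more, the control RNA held 13 of 26 follicle cell genes and 6 of 20 germline genes, and none of the marker genes of blood cells, muscle, neurons, eggshell or testis. Of all 16958 features, 5357 had a mean of at least 5 RPKM over the control and Piwi knockdown RNA.

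Quasimodo, an LTR retrotransposon of the Gypsy superfamily, was the feature at which Polybromo stood out most in the Piwi knockdown, among those with at least 200 reads. Its input was 251 RPKM in the control and 263 RPKM in the knockdown. Its Polybromo ChIP was 626 RPKM in the control and 5766 RPKM in the knockdown. Polybromo was thus already above input in control cells, by 2.49-fold, and stood 21.9-fold above input without Piwi. The change was 3.22 (counting interval 3.13 to 3.31), or 9.32-fold, and it rested on 4587 control and 48849 knockdown ChIP reads. One family then took 4.26% of all reads of the knockdown ChIP library (exact binomial interval 4.22% to 4.30%), against 0.462% of the control ChIP and 0.185% and 0.194% of the inputs. The other transposons together took 9.15% of the control ChIP and 9.59% of the knockdown ChIP.

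The gypsy element, the founding member of the superfamily and an env-bearing retrovirus-like element, came next among transposon families with at least 200 reads. Its input was 823 RPKM in the control and 848 RPKM in the knockdown, and its Polybromo ChIP was 749 RPKM and 1562 RPKM. In control cells the ChIP lay at the level of its input, at 0.91-fold, and in the knockdown it lay 1.84-fold above it. The change was 1.10 (1.04 to 1.17), from 5550 and 13384 ChIP reads. Quasimodo and gypsy were the only transposon families with at least 200 reads past 2-fold, and no such family was past 2-fold lower. Helitron, a DNA transposon with 16 reads, was also past 2-fold higher, and its interval of -1.7 to 4.2 spanned 0. Bari2, with 56 reads, was the only kept family past 2-fold lower, and its interval of -2.98 to 0.12 spanned 0 too.

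**Figure D1:**
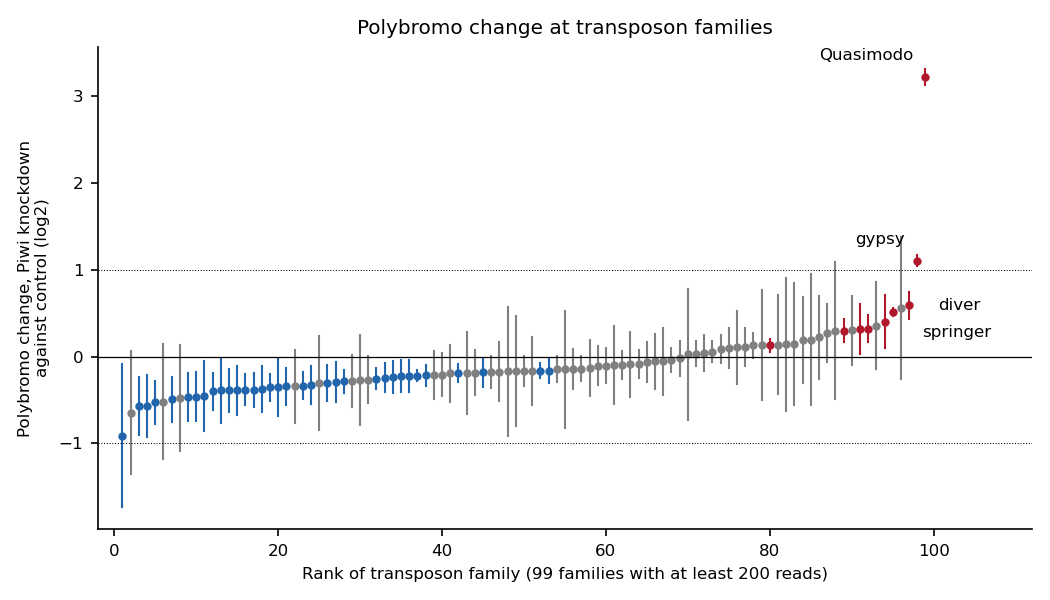
Polybromo change on Piwi knockdown (log2, y axis) at the 99 transposon families with at least 200 reads, ranked along the x axis. Points are families and bars are 95% counting intervals, red where the interval lies above 0 and blue where it lies below. Dotted lines mark 2-fold. Quasimodo at 3.22 and gypsy at 1.10 stand above all other families.

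Behind this pair came elements with changes under 2-fold whose reads were many. The element diver, of the BEL group of LTR retrotransposons, had 137 and 149 RPKM in the inputs, and 212 RPKM in the control and 326 RPKM in the knockdown ChIP. Its change was 0.59 (0.43 to 0.75). The Gypsy superfamily element springer was the best covered family, with 18117 control and 28354 knockdown ChIP reads. Its inputs were 1756 and 1771 RPKM, its ChIP 2418 and 3276 RPKM, and its change was 0.51 (0.47 to 0.55). Both elements were above input in control cells already, diver by 1.54-fold and springer by 1.38-fold.

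Counting intervals above 0 were found at 9 of the 99 families, below 0 at 34, and across 0 at 56. The 9 were Quasimodo, gypsy, diver, springer, invader4 (0.40, interval 0.09 to 0.71), 297 (0.32, 0.17 to 0.47), the telomeric element HeT-A (0.31, 0.03 to 0.60), blood (0.30, 0.17 to 0.43) and copia (0.13, 0.05 to 0.21). The list of Gypsy superfamily elements held 6 of them among its 42 families at that depth, of which 17 lay below 0. The list of copia and BEL elements held 2 among 10, with 5 below 0. That of LINEs held 1 among 27, with 9 below 0. In all 9 the knockdown ChIP was above the control ChIP without any input, and their inputs differed between conditions by ratios of 0.893 to 1.09. The same ChIP libraries picked these 9 and their inputs were nearly level, so this is no separate check. Over the Osa inputs, described below, 3 of the 9 were above 0. Most other families lay close to the median feature: 88 of the 99 were within 0.5 log2 units of it.

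**Figure D2:**
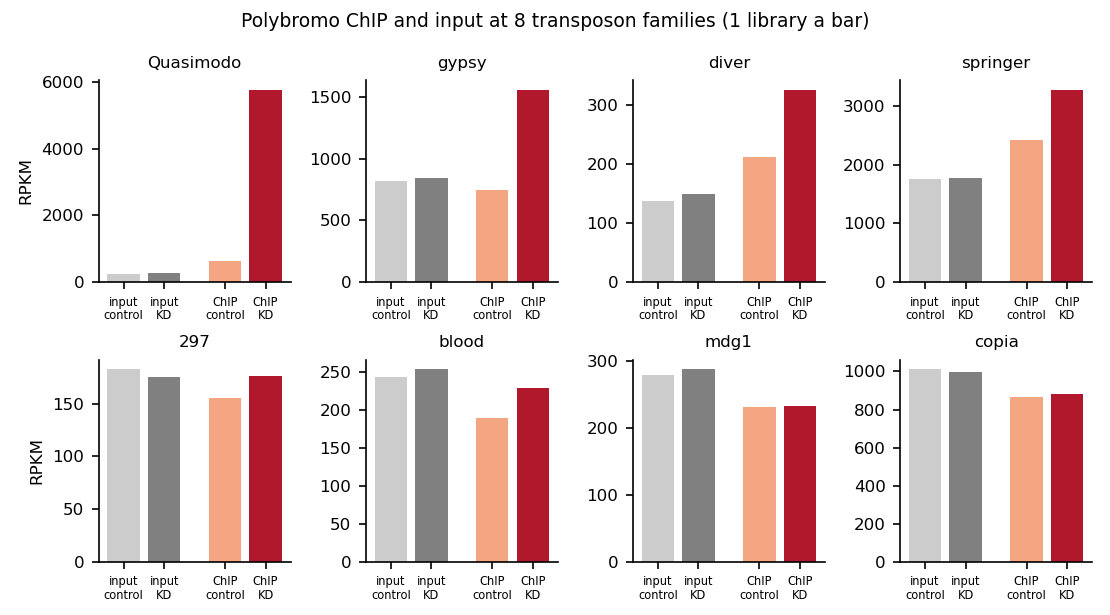
Deposited RPKM (y axis, a scale of its own in each panel) of 8 transposon families in the inputs (grey) and the Polybromo ChIP (orange and red) of control and Piwi knockdown (KD) cells. Each bar is 1 library, so there are no error bars. The inputs of Quasimodo, gypsy, diver and springer are level while their knockdown ChIP bars exceed the control ones. The ChIP bars of mdg1 and copia differ little.

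The 34 families below 0 had a median change of -0.35. The lowest was G3, a LINE, at -0.91 (-1.74 to -0.09) from 44 control and 28 knockdown ChIP reads. Burdock, a Gypsy superfamily element, had inputs of 45.9 and 54.1 RPKM and ChIP of 38.5 and 28.0 RPKM, a change of -0.57 (-0.91 to -0.24). The element accord changed by -0.53 (-0.78 to -0.28) and Bari1, a DNA transposon, by -0.47 (-0.75 to -0.19). The median over all 115 kept transposon families was -0.16, beside 0 for all kept features by construction. It was -0.17 for the 45 kept members of the Gypsy superfamily, -0.22 for the 10 copia and BEL elements, -0.18 for the 29 LINEs and 0.10 for the 23 DNA transposons. Of the DNA transposons, the 15 with at least 200 reads had a median of -0.02, and without input the median of the list was -0.11. The high values at Quasimodo and gypsy are thus not seen in the median of their class.

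The list of 22 transposons known as Piwi targets in ovarian somatic cells had 21 members in the table and 20 kept, all of these with at least 200 reads. Of these 20, 2 were higher past 2-fold and none lower, against 2.98% and 0.135% of features at that depth. Their counting intervals lay above 0 in 5 and below 0 in 4, against 8.39% and 7.04%, and their median was -0.05. Those shares are over features of which 640 were genes, with fewer reads than most transposon families. The 2.98% were 22 features, of which 18 were near-identical histone gene copies and 2 were Quasimodo and gypsy themselves. Among the 99 transposon families at that depth, intervals lay above 0 in 9 and below 0 in 34. Besides the 5 already named (Quasimodo, gypsy, springer, 297 and blood), the members ranged from -0.46 at gypsy10 to 0.19 at gtwin. ZAM and Idefix, env-bearing targets of the flamenco piRNA cluster, lay at -0.19 and -0.38, and Tirant was too sparse to be kept. RNA was not higher without Piwi at every member of the list. In control and knockdown it was 4016 and 3801 RPKM at springer, 0.17 and 0.11 at gypsy10 and 0.24 and 0.11 at rover. Members past 2-fold higher in RNA, at a mean of at least 5 RPKM, are given below.

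RNA was read beside Polybromo, since no library is shared between them. Of the 5357 features with a mean of at least 5 RPKM in the control and Piwi knockdown RNA, 1.18% were past 2-fold higher without Piwi on the log2(RPKM + 1) scale. Among the 33 kept transposon families at that level, 11 were. These 11 had a median Polybromo change of 0.11, and the other 22 one of -0.16. Polybromo was past 2-fold higher at 2 of the 11, its interval lay above 0 at 4 and below 0 at none. Over all 99 families with at least 200 reads the interval lay above 0 at 9 and below 0 at 34. Of those 9, diver, springer, invader4 and copia belonged to the other 22.

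Families with a large RNA difference did not all show a Polybromo difference. The RNA of mdg1 stood at 16.0 RPKM in the control and 513 RPKM in the knockdown, the largest ratio among these families. Its Polybromo ChIP was 231 RPKM and 232 RPKM and its inputs 280 and 287 RPKM, a change of 0.06 (-0.06 to 0.18) from 1715 and 1994 ChIP reads. Quasimodo, with RNA of 40.5 and 918 RPKM, had the change of 3.22 given above. Tabor, with RNA of 7.24 and 77.0 RPKM, had a Polybromo change of 0.11 (-0.11 to 0.33). The element 412, at 1.57 and 10.7 RPKM of RNA, lay at -0.18 (-0.37 to 0.01).

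At gypsy the RNA stood at 330 and 1172 RPKM, at 297 at 81.1 and 397 RPKM and at blood at 250 and 1043 RPKM. These 3 families had RNA differences of a like size, with log2 values of 1.82, 2.28 and 2.05, and Polybromo changes of 1.10, 0.32 and 0.30, whose intervals separate gypsy from the other two. Stalker2, mdg3 and 17.6 also had higher RNA, and their Polybromo changes of -0.06, 0.09 and -0.04 had intervals across 0. In the other direction, diver and springer had the highest Polybromo changes after Quasimodo and gypsy among those 9 families while their RNA was no higher, at 31.7 and 20.6 RPKM for diver and at 4016 and 3801 RPKM for springer. Across the 33 families, Pearson's r between RNA and Polybromo change was 0.52 and Spearman's rho 0.34. Without Quasimodo they were 0.24 and 0.28, so the first rested largely on that family. Families are not independent replicates, and no p is given.

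**Figure D3:**
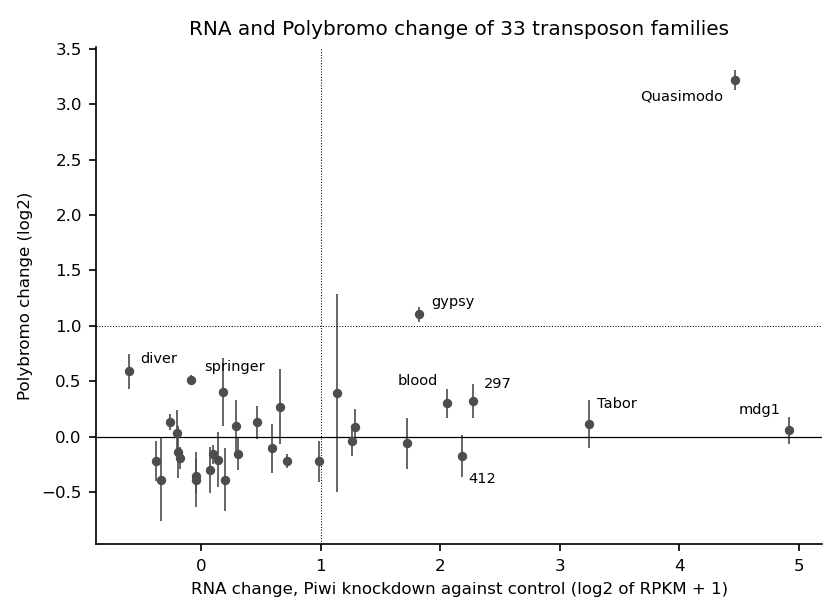
RNA change (x axis, log2 of RPKM + 1) against Polybromo change (y axis, log2) on Piwi knockdown for the 33 kept transposon families with a mean of at least 5 RPKM of RNA. Points are families, vertical bars 95% counting intervals of the Polybromo change, and dotted lines mark 2-fold. Quasimodo is high on both axes, whereas mdg1 and Tabor have higher RNA with Polybromo near 0.

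Brm, measured against the same inputs, and Osa, measured against inputs of its own, gave the following at these families. At Quasimodo the Brm ChIP was 168 RPKM in the control and 277 RPKM in the knockdown, a change of 0.75 (0.64 to 0.86) beside 3.22 for Polybromo. The shared inputs were 251 and 263 RPKM, so Brm lay below input in the control and near input in the knockdown. The Osa ChIP of Quasimodo was 275 and 1597 RPKM over inputs of 79.3 and 142 RPKM, a change of 1.31 (1.13 to 1.5). All 3 changes at Quasimodo were thus above 0, and that of Polybromo was the largest.

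At gypsy the Brm change was 0.76 (0.71 to 0.81), below the Polybromo change of 1.10, and the Osa change was -0.06 (-0.15 to 0.02). The Osa ChIP of gypsy itself was 487 RPKM in the control and 1048 RPKM in the knockdown, over Osa inputs of 505 and 866 RPKM. The Osa changes thus depend on inputs that differed between conditions, which are taken up below. At 297 the order was another: Osa 1.22 (1.04 to 1.41), Brm 0.51 (0.37 to 0.65) and Polybromo 0.32. At diver only Polybromo was above 0, with Brm at -0.07 (-0.23 to 0.09) and Osa at -1.0 (-1.22 to -0.78). At mdg1, where Polybromo was at 0.06, Brm was at 0.30 (0.19 to 0.41) and Osa at -0.02. Because Brm and Polybromo share both inputs, no correlation between them is given. Polybromo and Osa share no library. Over the 95 families with at least 200 reads whose Osa inputs also passed, Pearson's r was 0.16 and Spearman's rho -0.05, and r was -0.06 without Quasimodo.

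**Figure D4:**
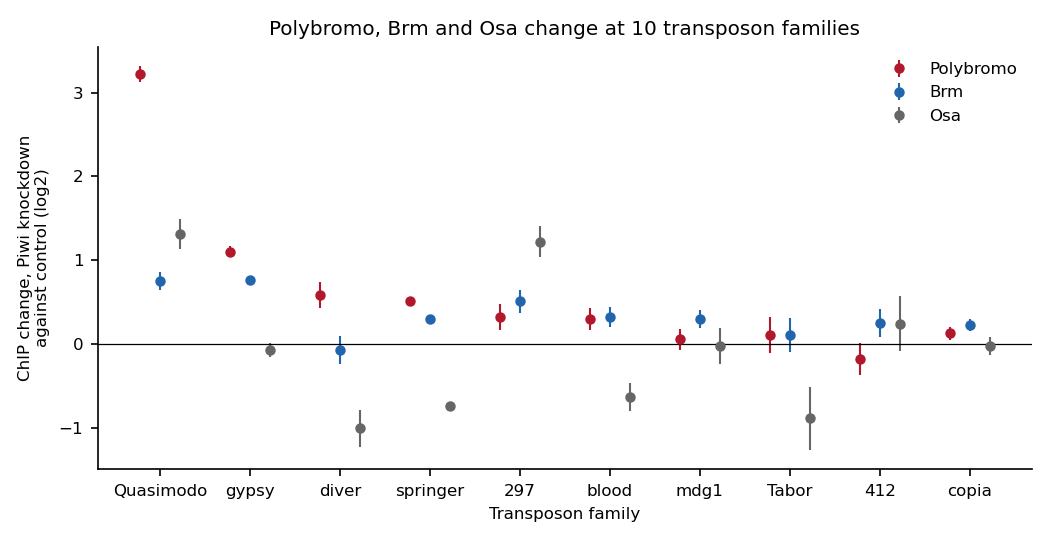
Change of the Polybromo (red), Brm (blue) and Osa (grey) ChIP on Piwi knockdown (log2, y axis) at 10 transposon families (x axis). Points are single comparisons of 1 library a condition and bars are 95% counting intervals. Osa was set over inputs of its own. Their knockdown to control ratio had a median of 1.28 at transposon families with at least 200 reads, against 0.999 for the inputs of Polybromo and Brm. With Osa on that other denominator, Polybromo exceeds Brm and Osa at Quasimodo, gypsy, diver and springer, while Osa exceeds both at 297.

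The Osa inputs are separate libraries of the same conditions and give another denominator. Between the Polybromo inputs, the knockdown to control ratio of the 99 families had a median of 0.999, with log2 quartiles of -0.10 and 0.07. Between the Osa inputs it had a median of 1.28, with log2 quartiles of 0.03 and 0.67. gypsy stood at 505 and 866 RPKM in the Osa inputs. Set over the Osa inputs, the Polybromo change was 2.23 at Quasimodo, 0.14 at gypsy, 0.05 at springer, -0.17 at diver, -0.77 at blood, -1.05 at 297, -0.70 at invader4, -0.05 at HeT-A and -0.13 at copia. With no input at all it was 3.27 at Quasimodo, 1.13 at gypsy, 0.51 at springer, 0.69 at diver, 0.34 at blood and 0.25 at 297. The call at Quasimodo thus held with every input, and that at gypsy held with its own input or none. Why the Osa inputs differed between conditions was not tested.

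Among genes with at least 200 reads, those higher past 2-fold were 18 copies of replication-dependent histone genes and 2 other genes. The counting interval lay above 0 in 25 of the 67 histone copies at that depth and in 28 of the 573 other genes. The histone genes lie in a tandem array on chromosome 2L (dm6 coordinates of the copies listed here run from 21416953 to 21541681), and their products package new DNA in S phase. Of 111 listed copies all were kept, 21 were higher past 2-fold and none lower, beside 8.72% and 9.22% of kept features, and their median change was 0.52. The copies are nearly identical, so a read cannot be assigned to one of them and values of single copies are uncertain. Sums over each histone type are given below. The table lists several rows under many copies, so a read may have been counted more than once, in which case the intervals of the sums are too narrow.

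The H4 genes (His4) had 578 input and 4282 ChIP reads in the control and 471 input and 8118 ChIP reads in the knockdown. Polybromo stood 9.41-fold above input in the control and 16.2-fold in the knockdown, a change of 0.87 (0.69 to 1.05). The H3 genes (His3) stood 6.98-fold above input in the control and 10.6-fold in the knockdown, a change of 0.70 (0.49 to 0.90). The linker histone genes (His1) went from 2.53-fold to 3.56-fold, a change of 0.58 (0.43 to 0.73). The changes were smaller at the H2B genes, 0.27 (0.05 to 0.48), and at the H2A genes, 0.18 (-0.06 to 0.41). The Polybromo signal was thus highest at the H3 and H4 genes in both conditions, while the intervals of the changes at the H1, H3 and H4 genes overlapped one another.

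Brm changes at the 5 histone types ran from -0.13 at the H2A genes to 0.17 at the H1 genes, and Osa changes from -0.84 at the H1 genes to 0.17 at the H3 genes. Together the histone genes took 1.08% of the control ChIP and 1.57% of the knockdown ChIP, against 0.234% and 0.229% of the inputs. Without input the median over copies was 0.46, but only 2 copies were past 2-fold higher. Over the Osa inputs the median was 0.01, with 7 copies past 2-fold higher and 3 lower. The 5S rRNA genes and the Ste genes, also tandem repeats, had changes of -0.04 (-0.70 to 0.61) and -0.02 (-0.60 to 0.55).

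Outside the histone genes, 573 genes had at least 200 reads. The counting interval lay above 0 in 28, or 4.89%, and below 0 in 18, or 3.14%. Together these are 46 genes, or 8.03%, where a 95% interval leaves out the true value in about 5% of features, both sides together, by its definition. The reads of a gene are summed over its transcripts, and only 36 of these genes have a single one, none of them among those 28 or 18. Read from the best-covered transcript alone, 12 of the 28 and 4 of the 18 kept an interval that leaves out 0. The reads of that transcript are part of the summed reads, so a kept interval is no separate check. Over all 573 genes read from the best-covered transcript, the interval lay above 0 in 20 and below 0 in 15.

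The 10 highest genes were 9 histone copies and REPTOR. At the best-covered row of each of the 9 copies, with 27 to 62 reads, every interval spanned 0 and 3 changes were below 0. REPTOR is a bZIP transcription factor that acts downstream of TORC1 (chromosome 3R, 24557368 to 24582864). It had 61 and 33 input reads and 39 and 71 ChIP reads in control and knockdown, a change of 1.30 (0.47 to 2.12). The next genes that are not histone genes were picked after the values were seen. They include the kinase gene mnb at 1.13 (0.37 to 1.88), brm itself at 0.97 (0.14 to 1.79), bun at 0.92 (0.40 to 1.44) and ci, the transcription factor of Hedgehog signalling, at 0.89 (0.09 to 1.68). Without input REPTOR was at 0.68, mnb at 0.40, brm at 0.69, bun at 0.47 and ci at 0.62, so neither REPTOR nor mnb was past 2-fold. At the best-covered transcript REPTOR stood at 1.53, bun at 1.80 and ci at 1.70 with intervals above 0, and mnb and brm at 0.69 and 0.87 with intervals across 0. Those reads are part of the sums by which the genes were picked, so they are no separate check.

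The lowest gene was CG40160, on chromosome 3L, with 63 and 55 input reads and 55 and 27 ChIP reads, a change of -1.40 (-2.24 to -0.56). At its best-covered transcript the change was -0.53, with an interval across 0. Next came Piezo, a mechanically gated ion channel, at -0.98 (-1.72 to -0.24), the calcineurin gene CanA-14F at -0.95 (-1.59 to -0.30) and Blimp-1, a transcriptional repressor induced by ecdysone, at -0.93 (-1.73 to -0.13). The intervals of these 3 spanned 0 at the best-covered transcript, whereas 2mit (-1.64), fend (-0.74) and Cdep (-0.79) kept theirs below 0. Here too the reads of the transcript are part of the sums that picked the genes. Without input Piezo was at -0.48, CanA-14F at -0.14, Blimp-1 at -0.35, 2mit at -0.36 and Cdep at -0.39, whereas CG40160 was at -1.27 and fend at -0.78.

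Genes whose RNA is higher together with transposons without Piwi, a list drawn from earlier results of these same data, had 9 of 11 members kept, none past 2-fold, and a median of 0.32. Abl, a tyrosine kinase gene, had inputs of 147 and 152 RPKM and ChIP of 138 and 167 RPKM, a change of 0.32 (0.19 to 0.44), beside RNA of 178 and 1117 RPKM. Snoo, a Ski/Sno family gene, was at 0.62 (0.22 to 1.03) with RNA of 36.9 and 226 RPKM, and udd, with RNA of 284 and 1602 RPKM, at 0.51 (-0.03 to 1.06). Polybromo at luna, whose RNA was 16.4 and 85.4 RPKM, was at 0.07 (-0.48 to 0.62). Over the Osa inputs Abl was at -1.27 and Snoo at -0.76.

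The medians of most other lists lay within the quartiles of all kept features, which were -0.44 and 0.44. The counts past 2-fold below stand beside 8.72% higher and 9.22% lower among all kept features. In the class of genes with the shortest transcripts, these shares were 18.8% and 21.5%. The SWI/SNF subunit genes were at 0.21 (13 kept, 1 higher, none lower), the nuclear piRNA silencing and heterochromatin genes at 0.16 (17 kept, none past 2-fold) and the somatic piRNA biogenesis genes at 0.20 (9 kept, 1 higher, 2 lower). The cytoplasmic ribosomal protein genes, short genes with none at 200 reads, had a median of 0.36 with quartiles of -0.33 and 0.83, 6 of 42 higher and 2 lower. The replication and cell cycle genes were at 0.28 (27 kept, 1 higher, none lower). The testis-expressed genes were the lowest list, at -0.89 with 4 of 12 lower, but no member had 200 reads and none of the 12 intervals left out 0. The genes whose RNA is lower without Piwi, also a list from earlier results of these data, were at 0.69, but only 3 were kept, none of them with 200 reads. The follicle cell identity genes were at 0.13 and the germline markers at -0.05.

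Grouped by RNA in control cells, genes other than histone genes had median changes of -0.09 at 0 RPKM (2640 genes), -0.05 above 0 to 1, -0.01 above 1 to 5, 0.06 above 5 to 20, 0.07 above 20 to 100 and 0.14 above 100 RPKM (362 genes). The median control enrichment of these classes ran in the same order, from -0.20 to 0.34. The quartiles of neighbouring classes overlapped almost wholly. Among the 573 well-covered genes the standard deviation of enrichment was 0.36 in the control and 0.48 in the knockdown. By chromosome the medians lay between -0.06 on chromosome 4 and 0.02 on X, leaving out Y with 5 genes. By transcript length they lay between -0.05 in the class of the shortest transcripts (2061 genes), where 18.8% of genes were past 2-fold higher and 21.5% lower, and 0.02 in that of the longest (2064 genes), where 1.11% and 1.07% were. Across the 478 of these genes that also passed in the Osa inputs, Pearson's r between Polybromo and Osa change was 0.06.

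**Figure D5:**
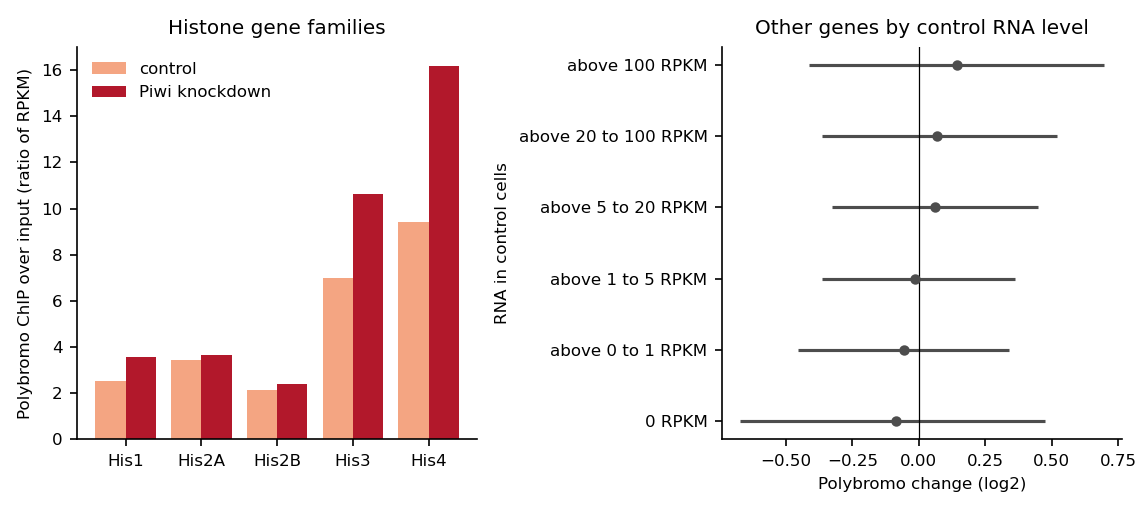
Left, Polybromo ChIP over input (ratio of summed RPKM, y axis) of the 5 replication-dependent histone types in control (orange) and Piwi knockdown (red) cells, 1 library each, with His4 at 9.41 and 16.2. Right, median Polybromo change (log2, x axis) of other genes by their RNA in control cells (y axis), where bars span the quartiles across genes. The medians run from -0.09 to 0.14 and the bars overlap.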

How the data were processed

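The authors deposited RPKM values (reads scaled to feature length and library size) for 35502 transcripts and transposons. The aligner was Bowtie2 2.2.4 and the build dm6, per the submitters' processing notes. The counting rule, with its handling of reads from several copies, is not given in the sources used here. Of the RNA columns, 4 matched no sample and stayed unused. Per the labels, 4 ovary samples belong to the series, and they were not analysed here.

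Reads were recovered by finding the library totals and feature lengths that turn RPKM into whole reads, within 0.01 read plus 2e-06 of the count. At least 99.8% of values were whole, which follows in part from how lengths were chosen. Transcripts were matched to genes of the RefSeq Release 6 table (34925 matched, 402 not), and RPKM and reads were summed per gene, which may count a read shared by isoforms more than once. Transposons of other species (52 rows) were left out. ChIP over input was taken after adding the 5th percentile of nonzero input (2.05 RPKM in the control and 1.95 in the knockdown). The median change subtracted was -0.09. Osa and Brm were treated alike. RNA was compared as log2(RPKM + 1). Intervals are the change ± 1.96 standard errors of log read counts, with 0.5 added to each count. They cover counting error only. With 1 library a condition no test was run. The calculation of the change was tested on simulated reads with known changes. Those held no reads shared by isoforms or copies, and the intervals were not tested in that way. Python 3.11.15, pandas 2.3.3, NumPy 2.4.6 and SciPy 1.17.1 were used.

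Named features are piwi and polybromo, the Piwi target list, the 10 highest and 10 lowest genes with at least 200 reads whose interval leaves out 0, up to 4 members of each list and the genes rising with transposons. Other names, among them transposons outside the target list, were chosen after their values were seen. The lists were chosen with earlier results of these data known.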

Additional observations from a re-analysis of the deposited data

How the results depend on the processing

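The counts of higher and lower features moved with the filter and the denominator. Without a filter on input they were 2033 higher and 1916 lower, and with mean input in the top quartile 362 and 404. At 200 reads or more, centred on those features, they were 20 and 2. Without input they were 374 and 386, and over the Osa inputs 2130 and 1915. Counted per deposited transcript row they were 3420 and 3351, and at a 1.5-fold call 1619 and 1634. A pseudocount of 1 RPKM, no pseudocount, no centring and summed reads left both counts within 1.5 times of 739 and 782. The median of the Piwi target list stayed between -0.14 and -0.02 and that of all transposons between -0.25 and -0.14 except over the Osa inputs, where they were -0.38 and -0.68. Quasimodo stayed past 2-fold under all 10 settings tried on it (2.23 to 3.27) and gypsy under 9, with 0.14 over the Osa inputs. Of 72 named features, 71 stayed within their counting interval without input and 33 over the Osa inputs, where 28 changed sign, 297, blood, diver, Abl and Snoo among them. Those past 2-fold that did so were 2 histone copies, His3:CG33842 to -0.28 and His4:CG31611 to -0.083. The cause was not tested. No paired analysis was possible because each condition held 1 library. Depth limits the genes: the median interval of a kept gene reached 1.54 to either side and that of a well-covered transposon 0.25.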
